A study of Homo sapiens with 12 samples.

Results

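The 31 genes described here carry glucose into the cell and through glycolysis and the pentose phosphate pathway. They were chosen by name and function from the 44659 genes of a table of read counts, by a rule that uses no measured value but was drawn up with earlier results of these data known. RNA-seq was performed on A375 cells, an established human melanoma line with a mutant BRAF, in 2 experiments with 3 libraries per group and 12 libraries in all. In the first experiment, cells were cultured for 24 h in medium with 2 mM glutamine and either 500 nM vemurafenib, a BRAF inhibitor, with 500 nM cobimetinib, a MEK inhibitor (MAPKi), or the solvent (DMSO). In the second, cells received for 24 h a medium without added glutamine (Gln-depleted) or with 2 mM glutamine (CTRL). All groups were the same line in serum-containing medium, and each comparison asks whether the mRNAs of sugar metabolism differ between treated and control cells of 1 experiment.

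Glycolysis splits glucose into pyruvate and yields ATP and NADH, and lactate dehydrogenase turns pyruvate into lactate that leaves the cell through monocarboxylate transporters. The pentose phosphate pathway branches off after the hexokinase step. Its oxidative arm yields NADPH and its non-oxidative arm exchanges carbon between pentoses and glycolysis, which links it to nucleotide synthesis. Melanoma cells with mutant BRAF are known for a high use of glucose, and glutamine is a second major carbon source of many tumour cells.

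Between 31056296 and 40071368 reads were counted per library. The 31 genes took 1.74% to 1.82% of the reads in DMSO, 1.48% to 1.56% in MAPKi, 1.49% to 2.15% in CTRL and 1.35% to 1.75% in Gln-depleted libraries. The melanocyte markers SOX10, MITF, PMEL, S100B, S100A1 and PAX3 were expressed in every group. TYR was low in replicates 1 to 3 of DMSO (31.2, 29.9 and 35.7 normalized counts), CTRL (21.6, 26.6 and 24.3) and Gln-depleted libraries (11.2, 22.3 and 16.9). The CTRL and Gln-depleted values overlapped. MLANA had 7.8, 25.6 and 15.3 in CTRL replicates 1 to 3 and fewer than 20 in each Gln-depleted library. Of 10 markers of other cells, 7 (EPCAM, KRT5, KRT14, CDH1, PTPRC, CD3E and PECAM1) had fewer than 20 normalized counts in every library. The summed level of the 10, most of it from VWF and PDGFRB, was 307 to 345.1 in DMSO, 745 to 793 in MAPKi, 225 to 449 in CTRL and 425 to 518 in Gln-depleted libraries, and its part in the results was not tested. The MAPK targets DUSP6, SPRY4, CCND1, ETV5 and PHLDA1 were all lower with MAPKi (log2 fold change of DUSP6, -9.55), and the amino acid response genes ASNS, CHAC1, TRIB3 and DDIT3 were all higher with Gln depletion (CHAC1, 3.32). SESN2, also meant as a check of Gln depletion, had at most 1 normalized count in any library and was not tested. The labels put replicate 1 of the Gln depletion experiment in another experimental batch than replicates 2 and 3. They do not say whether the libraries within a batch, or those of the MAPKi experiment, came from separate cultures, so that p-values may there measure a technical spread. In bulk RNA fewer cells of a type and less RNA per cell cannot be told apart.

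Per transcript length, GAPDH, ENO1, PKM, LDHB and TPI1 were the most abundant members. In DMSO libraries, GAPDH had an RPKM of 4490.4 ± 108 (SD, n = 3), computed here over the canonical transcript and the protein-coding reads, ENO1 1903 ± 60.8, PKM 1136 ± 45.7, LDHB 862 ± 41.4 and TPI1 701 ± 18.4. The pentose phosphate enzyme TKT followed with 351 ± 6.98, ahead of PGAM1 with 286 ± 9.96 and PGK1 with 205 ± 8.01. ENO2 had 22.8 ± 0.86. The transporters, kinases and regulators at the head of the pathway had lower RPKM, such as PFKM with 65.1 ± 2.05, PFKFB4 with 61.3 ± 2.41, HK2 with 42.9 ± 2.35, SLC2A1 with 33.5 ± 4.45 and PFKFB2 with 7.29 ± 0.27. The libraries of PFKM and PFKFB4 overlapped, as did those of SLC2A1 and RPE (33.3 ± 0.88), so the order within these pairs is within their spread.

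**Figure D1:**
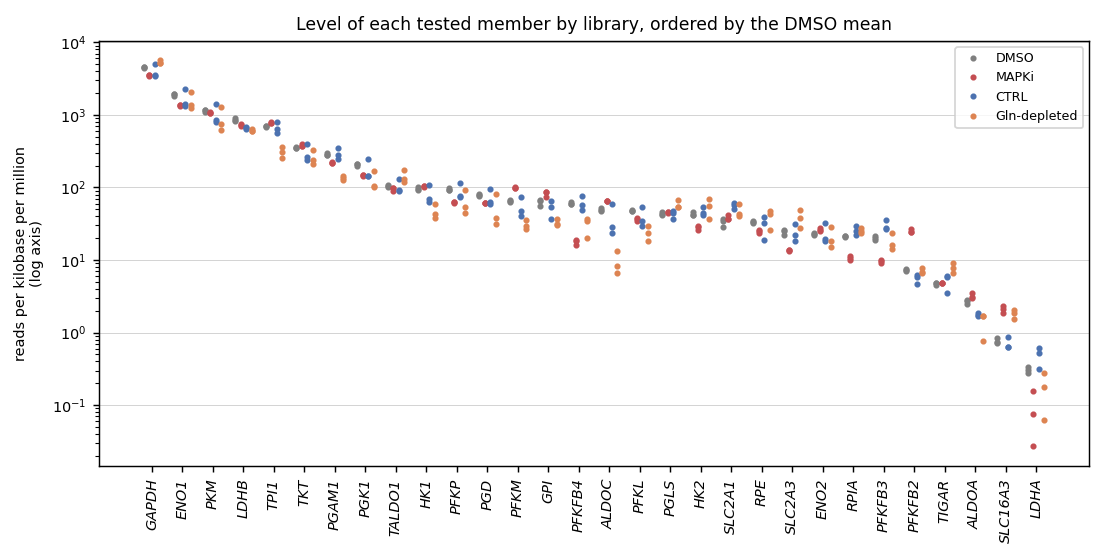
RPKM over the canonical transcript and the protein-coding reads (log axis) of the 30 tested members, in order of their level in DMSO, with points for single libraries of the 4 groups. GAPDH, ENO1 and PKM lie highest in DMSO, and ALDOA, SLC16A3 and LDHA lie at the bottom.

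The rows of 3 members held few reads. SLC16A1, a lactate and pyruvate transporter, had 21 reads in the 12 libraries and did not reach the limit of a mean normalized count of 10, so that 30 of the 31 members were tested. The table lists a second row under its symbol, marked by a suffix, with 1462 reads, 818 of them in Gln-depleted replicate 2. LDHA had 245 reads, and a second row under its symbol had 10581, of which 8627 were in CTRL replicate 1. ALDOA had 1486 reads, and in the GENCODE annotation 42.8% of its exon bases are shared with another gene of the same strand. Reads there could not be assigned to 1 gene if the counting held both genes. The paper states NCBI's annotation for its analyses, and whether that held the overlapping genes was not checked. The values of these 3 rows are therefore uncertain as measures of the genes. By GENCODE, and with the same limit, a smaller share of exon bases is shared on the same strand by LDHB (33.4%), TIGAR (18.1%), GPI (5.1%) and PFKFB4 (4.9%). GPI has a second row with 1056 reads. Whether the reads were counted by strand is not given in the sources used here, and by GENCODE RPE shares 23.8% and GAPDH 17.6% of their exon bases with genes on the opposite strand.

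To show the DNA around the start sites of members on which the results turn, windows from 250 bases before to 50 bases after the start were taken from RefSeq (GRCh38.p14). The letters ACGTG, the core bound by hypoxia-inducible factors, and CACGTG, an E-box bound by MYC and related factors, are in capitals. Both were searched on both strands, so that CACGT in capitals is ACGTG on the other strand, and every CACGTG holds ACGTG on each strand. Of the 2 windows of HK2, the one at the outermost annotated start of the gene holds ACGTG at 2 places, and the one whose start site lies 1043 bases downstream holds 2 CACGTG. The window of ALDOC, 53 bases downstream, holds 1 CACGTG and 1 further ACGTG on the other strand, that of GAPDH, 752 bases downstream, 1 CACGTG, and that of PFKFB4, 5212 bases downstream, neither. These members were chosen after their values were seen.
HK2, chr2:74833877-74834176, plus strand: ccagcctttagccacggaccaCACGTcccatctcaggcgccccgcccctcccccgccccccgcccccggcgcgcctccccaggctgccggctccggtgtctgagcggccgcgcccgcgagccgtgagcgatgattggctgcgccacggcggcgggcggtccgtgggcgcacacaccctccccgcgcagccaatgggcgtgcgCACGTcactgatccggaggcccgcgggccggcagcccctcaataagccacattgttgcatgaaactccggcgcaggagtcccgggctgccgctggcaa
HK2, chr2:74834920-74835219, plus strand: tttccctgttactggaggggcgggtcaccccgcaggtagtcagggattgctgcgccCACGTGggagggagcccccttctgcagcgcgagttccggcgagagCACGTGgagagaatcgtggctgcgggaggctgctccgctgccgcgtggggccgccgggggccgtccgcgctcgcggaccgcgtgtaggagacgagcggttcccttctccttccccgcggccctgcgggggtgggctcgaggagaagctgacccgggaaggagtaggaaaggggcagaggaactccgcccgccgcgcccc
ALDOC, chr17:28576846-28577145, minus strand: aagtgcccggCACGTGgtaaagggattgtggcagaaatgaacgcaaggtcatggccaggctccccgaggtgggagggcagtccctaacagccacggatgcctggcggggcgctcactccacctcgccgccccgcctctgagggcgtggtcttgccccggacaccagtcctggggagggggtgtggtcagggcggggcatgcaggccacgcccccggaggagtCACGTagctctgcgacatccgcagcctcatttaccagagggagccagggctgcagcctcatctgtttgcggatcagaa
GAPDH, chr12:6535014-6535313, plus strand: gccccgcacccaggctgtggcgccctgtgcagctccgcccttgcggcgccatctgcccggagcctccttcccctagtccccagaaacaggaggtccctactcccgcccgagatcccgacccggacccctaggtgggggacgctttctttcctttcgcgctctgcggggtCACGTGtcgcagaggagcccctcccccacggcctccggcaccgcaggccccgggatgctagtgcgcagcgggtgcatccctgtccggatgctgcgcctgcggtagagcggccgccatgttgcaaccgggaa
PFKFB4, chr3:48556754-48557053, minus strand: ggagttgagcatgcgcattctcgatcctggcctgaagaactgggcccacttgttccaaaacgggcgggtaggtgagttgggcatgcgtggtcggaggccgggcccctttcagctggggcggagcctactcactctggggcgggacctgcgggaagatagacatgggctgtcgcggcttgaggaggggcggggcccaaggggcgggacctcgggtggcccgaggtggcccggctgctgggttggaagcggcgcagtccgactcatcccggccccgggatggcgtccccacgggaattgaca

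RefSeq gave 53 such windows for 28 of the members, 13 of them, from 12 genes, within 100 bases of the outermost annotated start, and none was used for SLC2A3, PFKFB2 and SLC16A1. ACGTG stood in 19 of the 53 windows (35.8%) and in at least 1 window of 15 of the 28 genes (53.6%). Of all 35116 windows 21.4% held it, of the 15470 windows of tested genes 25.1%, and of 10410 tested genes 32.4% had at least 1 window with it. CACGTG stood in 6 windows (11.3%) of 6 genes (21.4%), against 7.3% of all windows, 9.3% of the windows of tested genes and 12.8% of tested genes. The matches are a description of these letters only.

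With MAPKi, most members of sugar metabolism changed, and more fell than rose. Of the 30 members tested, 16 (53.3%) were lower and 8 (26.7%) were higher than in DMSO (edgeR's quasi-likelihood test, Benjamini-Hochberg adjusted p of at most 0.05 over 12592 genes, values after ± being the SE below). Changes were frequent among all genes too, with 39.8% lower and 38.4% higher, so the count of higher members was below and that of lower members above the background share. Past 1.5-fold, 5 members were lower (SLC2A3, PFKFB3, PFKFB4, LDHA and RPIA) and 2 higher (PFKFB2 and SLC16A3), 16.7% and 6.67% of the members, beside 18.8% and 16.7% of all genes. The median log2 fold change of the members was -0.20, that of all genes -0.01, and 17 of 30 members lay below 0 against 50.5% of all genes. In 16 members all MAPKi libraries lay below all DMSO libraries, in 9 above, and in 5 the groups overlapped, beside 41.1% of all genes below and 39.6% above. When all 12 libraries shared 1 estimate of the spread, 10 of the 24 calls were kept (SLC2A3, HK2, PFKM, PFKFB2, PFKFB3, PFKFB4, PGAM1, LDHA, SLC16A3 and RPIA), while GPI, PFKL, PFKP, ALDOC, TPI1, GAPDH, PGK1, ENO1, ENO2, LDHB, PGD, TKT, TALDO1 and RPE lost theirs (adjusted p from 0.0555 to 0.632) at like fold changes.

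**Figure D2:**
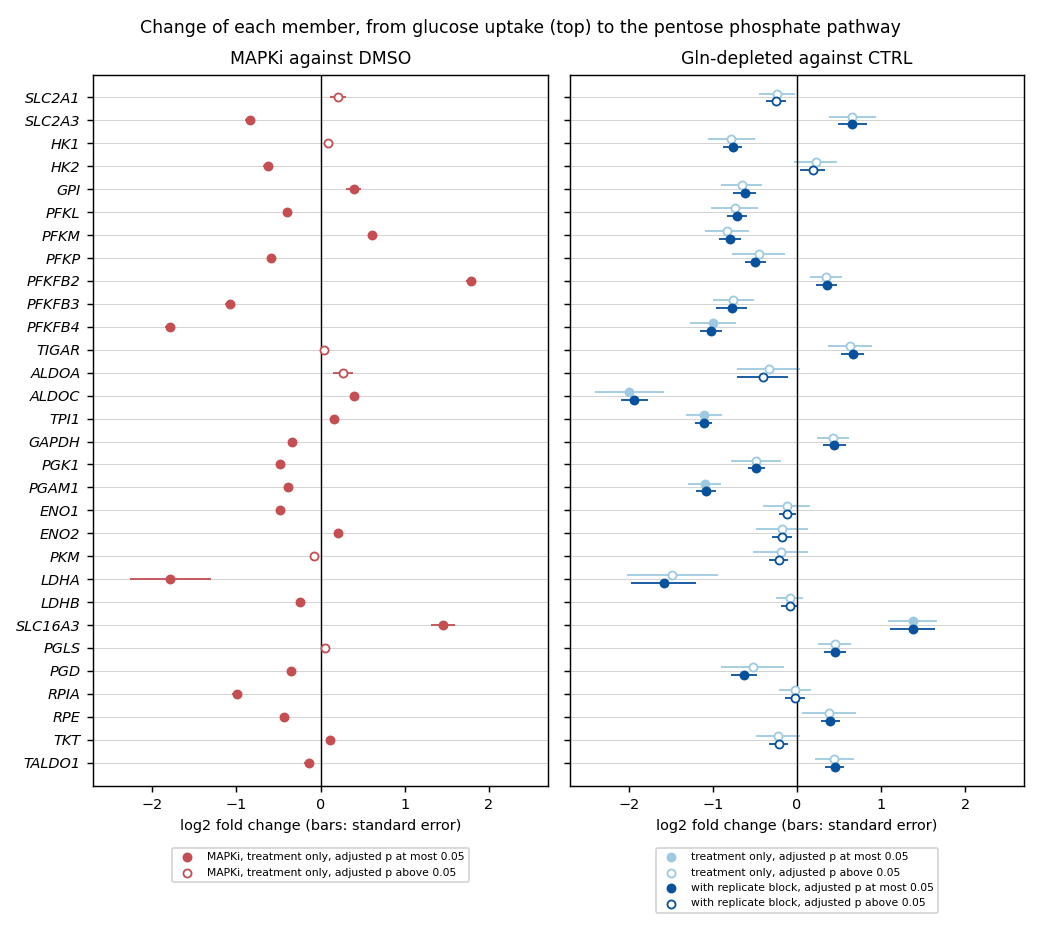
Log2 fold changes of the 30 tested members with their standard errors, by pathway step, for MAPKi against DMSO and for Gln-depleted against CTRL. PFKFB2 and SLC16A3 reach 1.78 and 1.46 with MAPKi, PFKFB4 and LDHA lie at -1.79 and -1.78, and with Gln depletion ALDOC has the lowest value, -1.99.

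Of the glucose transporters, SLC2A3 fell with MAPKi. It had 3249.8, 2775 and 3180.1 normalized counts in DMSO replicates 1 to 3 and 1739, 1694 and 1722 in MAPKi replicates 1 to 3. The groups did not overlap, and the log2 fold change was -0.84 ± 0.06 (SE, adjusted p = 8.79e-07), a fall to 0.56 of the DMSO level. SLC2A1, the main glucose transporter of many tumour cells, had 4138, 3864 and 3177 counts in DMSO and 4712, 4039 and 4144 in MAPKi libraries. These groups overlapped, with a log2 fold change of 0.21 ± 0.095, adjusted p = 0.0721. SLC2A1 was called higher by DESeq2 (adjusted p = 0.0296), with total counts (0.0243) and without DMSO replicate 1 (0.0215).

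In upper glycolysis, 3 of 8 members rose (GPI, PFKM and ALDOC) and 3 fell (HK2, PFKL and PFKP). HK2, the inducible hexokinase that traps glucose as its phosphate, had 7749, 8426 and 7617 normalized counts in DMSO and 4765, 5239.9 and 5439 in MAPKi libraries (log2 fold change -0.62 ± 0.062, adjusted p = 8.86e-06). HK1, the hexokinase of most tissues, was not called (log2 fold change 0.09 ± 0.05, adjusted p = 0.112), so that 1 of the pair passed the test. HK2 made up 30.7% ± 1.8 (SD, n = 3) of the length-scaled reads of the pair in DMSO and 21.2% ± 0.82 in MAPKi libraries, and these values did not overlap.

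The 3 phosphofructokinase genes, whose products catalyse the committed step of glycolysis, moved in opposite directions. PFKM, the muscle type, rose from 6388, 6657 and 6798 counts in DMSO to 10046, 9969 and 10259 in MAPKi libraries (log2 fold change 0.61 ± 0.044, adjusted p = 8.18e-07). PFKP, the platelet type, fell from 7949, 8474 and 7984 to 5327, 5419 and 5423 (log2 fold change -0.59 ± 0.044, adjusted p = 1.05e-06), and PFKL, the liver type, from 4543, 4677 and 4599 to 3266, 3558 and 3632 (log2 fold change -0.40 ± 0.049, adjusted p = 4.06e-05). In none of the 3 did the groups overlap. PFKM went from 31.4% ± 0.77 to 50.1% ± 0.63 of the length-scaled reads of the 3 genes, while PFKP went from 45.4% ± 0.8 to 31.5% ± 0.32. GPI, the isomerase between the hexokinase and phosphofructokinase steps, rose by 0.39 ± 0.092, adjusted p = 0.00306 on the log2 scale. ALDOC, an aldolase, rose by 0.40 ± 0.048, adjusted p = 3.81e-05, on the same scale.

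Large changes lay in the PFKFB genes, whose bifunctional enzymes make and degrade the sugar bisphosphate that activates phosphofructokinase. PFKFB2 had 1679, 1639 and 1763 normalized counts in DMSO and 5605, 5696 and 6198 in MAPKi libraries. It rose 3.44-fold (log2 fold change 1.78 ± 0.054, adjusted p = 2.92e-09). PFKFB4 had 7365, 6911 and 6863 counts in DMSO and 1878, 2164 and 2091 in MAPKi libraries, a fall to 0.29 of the DMSO level (log2 fold change -1.79 ± 0.06, adjusted p = 5.46e-09). PFKFB3, the form with the strongest kinase activity, fell from 2993, 3190.2 and 2755 to 1352, 1479 and 1419 (log2 fold change -1.07 ± 0.061, adjusted p = 1.54e-07). The groups did not overlap in any of the 3 genes. PFKFB2 went from 8.2% ± 0.53 to 47.8% ± 1.7 of the length-scaled reads of the family, and PFKFB4 went from 69.0% ± 1.2 to 33.9% ± 1.2. TIGAR, a phosphatase that lowers the same bisphosphate, had 1289, 1289 and 1212 counts in DMSO and 1289, 1314 and 1309 in MAPKi libraries, which overlapped (log2 fold change 0.05 ± 0.046, adjusted p = 0.385).

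**Figure D3:**
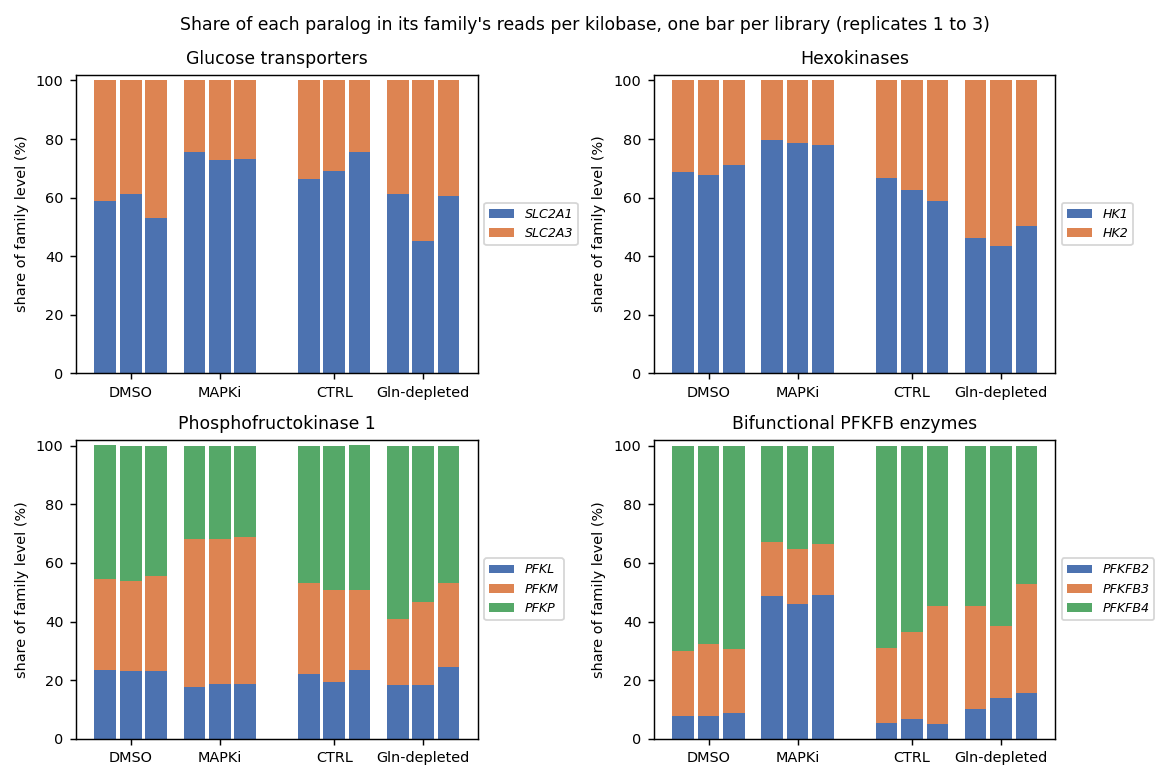
Share of each gene in the length-scaled reads of its family (percent, stacked bars of 1 library each) in the 12 libraries. PFKFB2 takes 45.9% to 48.9% of its family in MAPKi libraries against 7.9% to 8.8% in DMSO, and HK2 takes 49.7% to 56.6% of the hexokinase pair in Gln-depleted libraries against 33.2% to 41.3% in CTRL.

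In lower glycolysis, 4 of 7 members fell with MAPKi (GAPDH, PGK1, PGAM1 and ENO1) and 2 rose (TPI1 and ENO2). GAPDH, which makes the NADH of glycolysis, had 184720, 190536 and 193734 normalized counts in DMSO and 146485, 150823 and 151714 in MAPKi libraries (log2 fold change -0.34 ± 0.035, adjusted p = 1.21e-05). ENO1, the common enolase, fell from 107299, 113823 and 113034 to 78772, 80451 and 80881 (log2 fold change -0.48 ± 0.039, adjusted p = 2.05e-06). PGK1, the first ATP-yielding enzyme, had a log2 fold change of -0.48 ± 0.044, adjusted p = 5.52e-06, and PGAM1, the mutase after it, one of -0.39 ± 0.046, adjusted p = 3.28e-05. These falls were each smaller than 1.5-fold but larger than the spread, with no overlap of the groups. TPI1, which interconverts the triose phosphates, rose by 0.16 ± 0.042, adjusted p = 0.00645, and ENO2, the neuronal enolase, by 0.20 ± 0.048, adjusted p = 0.00332, both on the log2 scale. PKM, the pyruvate kinase gene, had 82106, 87795 and 88392 counts in DMSO and 80697, 81114 and 82229 in MAPKi libraries, which overlapped (log2 fold change -0.08 ± 0.041, adjusted p = 0.0941).

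At the lactate step, LDHB, the main lactate dehydrogenase row of these libraries, fell from 35349, 36532 and 38836 to 30436, 31181 and 31619 normalized counts (log2 fold change -0.25 ± 0.047, adjusted p = 0.000838). SLC16A3, a transporter that exports lactate, had 73.2, 60.8 and 62.7 counts in DMSO and 183, 198 and 159.5 in MAPKi libraries. It rose 2.75-fold from a low level, with no overlap (log2 fold change 1.46 ± 0.14, adjusted p = 8.65e-06). The LDHA row held 22.6, 24.9 and 20.3 counts in DMSO and 2, 5.5 and 11.5 in MAPKi libraries (log2 fold change -1.78 ± 0.48, adjusted p = 0.00724), values that rest on a few reads and on the row described above. ALDOA, the other uncertain row, was not called (log2 fold change 0.27 ± 0.12, adjusted p = 0.0599).

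**Figure D4:**
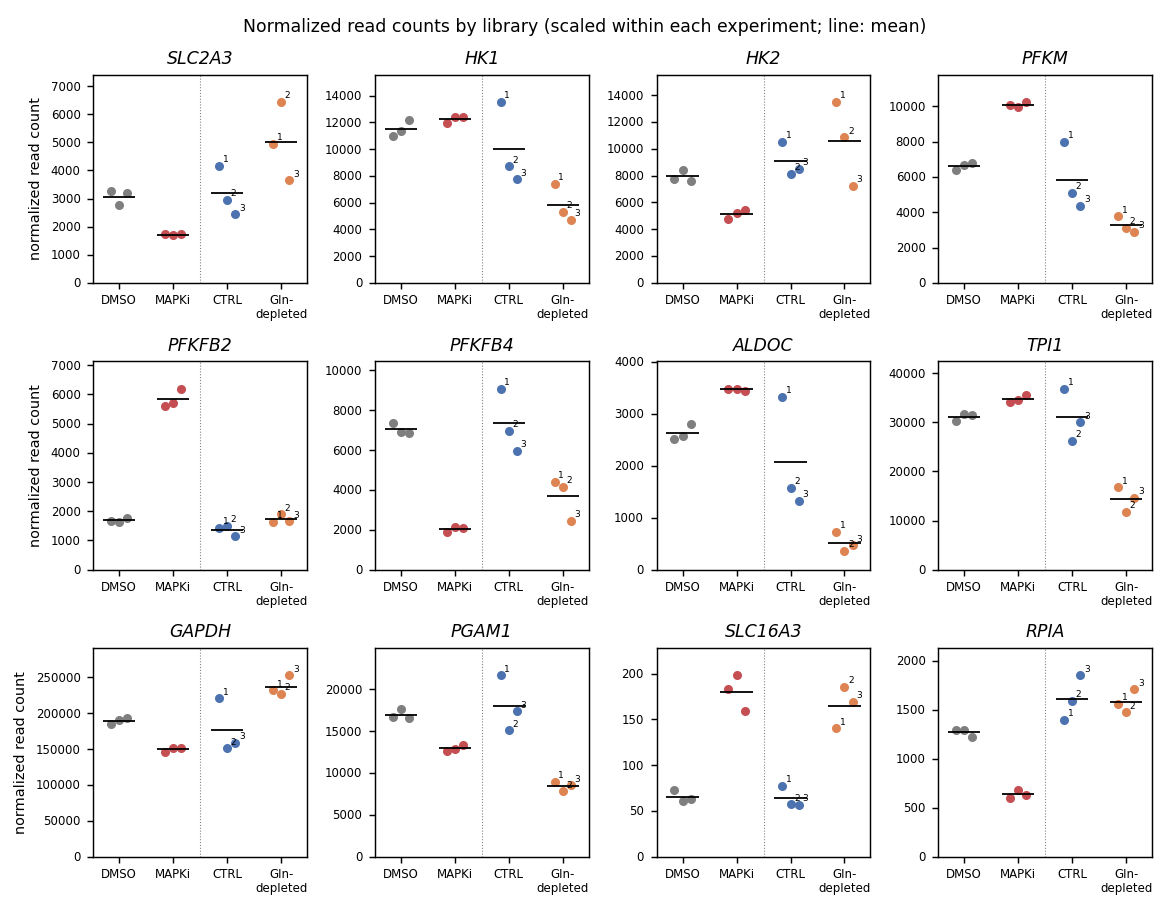
Normalized counts (linear axes from 0) of selected members in each of the 12 libraries, with points for libraries and lines for group means. MAPKi libraries have 5605 to 6198 counts of PFKFB2 against 1639 to 1763 in DMSO, and Gln-depleted libraries have 368 to 733 counts of ALDOC against 1328 to 3329 in CTRL.

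In the pentose phosphate pathway, 4 of 6 members fell with MAPKi and 1 rose. RPIA, the isomerase that forms ribose phosphate, had 1298, 1292 and 1221 normalized counts in DMSO and 603, 679 and 628 in MAPKi libraries. No library of one group reached the other, and RPIA fell to 0.501 of the DMSO level (log2 fold change -1.0 ± 0.059, adjusted p = 2.20e-07). RPE, the epimerase beside it, had a log2 fold change of -0.43 ± 0.046, adjusted p = 1.60e-05, and PGD, an NADPH-yielding enzyme of the oxidative arm, one of -0.35 ± 0.043, adjusted p = 4.33e-05. The carbon-exchanging enzymes changed little: TALDO1 had a log2 fold change of -0.14 ± 0.054, adjusted p = 0.0341 and TKT of 0.12 ± 0.041, adjusted p = 0.0256. The call of TKT was lost without DMSO replicate 1 or 2 or MAPKi replicate 2 or 3 (adjusted p from 0.0541 to 0.134), and that of TALDO1 without DMSO replicate 2 or 3 or MAPKi replicate 1 (adjusted p from 0.0608 to 0.119). PGLS, the lactonase of the oxidative arm, was not called (log2 fold change 0.05 ± 0.05, adjusted p = 0.358).

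With Gln depletion, few members passed the test, most of them lower, and the libraries of a group lay far apart. Of 30 members, 4 (13.3%) were lower (PFKFB4, ALDOC, TPI1 and PGAM1) and 1 (3.33%) was higher (SLC16A3), beside 8.43% and 9.45% of 12508 genes. Past 1.5-fold, ALDOC was lower, beside 2.1% of all genes, and no member was called higher by edgeR or DESeq2 (1 member, SLC16A3, at an unadjusted p under 0.05), beside 3.48% of all genes. Replicate 1 came from experimental batch 1 and replicates 2 and 3 from experimental batch 2, and libraries with the same number deviated together. With the replicate number as a block, 13 members (43.3%) were lower and 8 (26.7%) higher, beside 23.8% and 25.1% of all genes, and past 1.5-fold 4 lower (PFKFB4, ALDOC, TPI1 and PGAM1) and 1 higher (SLC16A3), beside 7.85% and 8.84%. Within batch 2 alone, 11 members were lower and 6 higher, while batch 1 holds 1 library per group and gives no test. Without Gln-depleted replicate 2, edgeR called 0 members in either direction in the test without the block, with 5 lower and 1 higher at an unadjusted p under 0.05. Without Gln-depleted replicate 1 it called 8 lower, and without replicate 3 it called 2. The call of SLC16A3 was lost without CTRL replicate 2 or 3 or Gln-depleted replicate 2 or 3 (adjusted p from 0.055 to 0.0753), while 2 members were higher without CTRL replicate 1. That of PFKFB4 was lost without any 1 library other than Gln-depleted replicate 1 (0.0647 to 0.0952), and ALDOC passed 1.5-fold only with all 6 libraries or without Gln-depleted replicate 1.

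The median log2 fold change of the members was -0.23 with Gln depletion and that of all genes 0.00. Of the 30 members, 21 lay below 0, against 49.9% of all genes. In the 3 pairs of libraries with the same number, 19 members were lower in each Gln-depleted library and 8 were higher in each, and 3 were of mixed sign, beside 34.7% of all genes lower and 36.5% higher in each pair. Without regard to the pairs, 9 members lay wholly below CTRL, 5 wholly above and 16 overlapped, beside 19.8% of all genes below and 20.1% above.

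ALDOC, TPI1 and PGAM1 were lower in every Gln-depleted library than in any CTRL library. ALDOC had 3329, 1575 and 1328 normalized counts in CTRL replicates 1 to 3 and 733, 368 and 465 in Gln-depleted replicates 1 to 3, with log2 ratios within the pairs of -2.18, -2.09 and -1.51. Its log2 fold change was -1.99 ± 0.41 (adjusted p = 0.0148), or -1.93 ± 0.16 (adjusted p = 0.000178) with the replicate block, a fall to 0.251 of the CTRL level. TPI1 fell from 36853, 26215 and 29988 counts to 16782, 11755 and 14592, to 0.463 of the CTRL level (log2 fold change -1.11 ± 0.22, adjusted p = 0.0126, and -1.11 ± 0.11, adjusted p = 0.000293, with the replicate block). PGAM1 had 21667, 15112 and 17352 counts in CTRL and 8973, 7822 and 8504 in Gln-depleted libraries, to 0.467 of the CTRL level (log2 fold change -1.10 ± 0.20, adjusted p = 0.00965, and -1.08 ± 0.12, adjusted p = 0.000438, with the replicate block).

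GAPDH had fitted values above 0, unlike TPI1, PGK1 and PGAM1, its neighbours in the pathway. It had 220637, 151111 and 158900 normalized counts in CTRL and 231824, 227188 and 252737 in Gln-depleted libraries, with log2 ratios in the pairs of 0.07, 0.59 and 0.67. The Gln-depleted libraries lay above all CTRL libraries, and the log2 fold change was 0.42 ± 0.19 (adjusted p = 0.157), or 0.44 ± 0.13 (adjusted p = 0.0262) with the replicate block. GAPDH took 35.0%, 43.2% and 47.3% of the members' reads in Gln-depleted replicates 1 to 3 and 27.9% to 30.5% in the other 9 libraries. PGK1, the next enzyme, had pair log2 ratios of -0.51, -0.44 and -0.50 (log2 fold change -0.49 ± 0.30, adjusted p = 0.279, and -0.49 ± 0.10, adjusted p = 0.00669, with the replicate block). ENO1, ENO2 and PKM were not called with or without the block, with log2 fold changes of -0.12, -0.18 and -0.19, and all 3 turned to positive values without CTRL replicate 1 (0.16, 0.12 and 0.11).

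In upper glycolysis, 1 of 8 members (ALDOC) was lower without the block and 6 with it (HK1, GPI, PFKL, PFKM, PFKP and ALDOC). HK1 had 13537, 8709 and 7729.8 counts in CTRL and 7421, 5320.1 and 4698 in Gln-depleted libraries, with pair log2 ratios of -0.87, -0.71 and -0.72 (log2 fold change -0.78 ± 0.28, adjusted p = 0.0835, and -0.77 ± 0.11, adjusted p = 0.00128, with the replicate block). PFKM had pair log2 ratios of -1.08, -0.72 and -0.58 (log2 fold change -0.84 ± 0.26, adjusted p = 0.0587, and -0.80 ± 0.13, adjusted p = 0.0023, with the replicate block). The other 3 calls with the block were PFKL at -0.72 ± 0.12 (adjusted p = 0.00244), GPI at -0.62 ± 0.14 (adjusted p = 0.00803) and PFKP at -0.50 ± 0.12 (adjusted p = 0.0128). HK2 had 10529, 8105 and 8507 counts in CTRL and 13503, 10855 and 7249.5 in Gln-depleted libraries, which overlapped (log2 fold change 0.22 ± 0.25, adjusted p = 0.573, and 0.18 ± 0.15, adjusted p = 0.338, with the replicate block). Its share of the length-scaled reads of the hexokinase pair was 37.3% ± 4.0 in CTRL and 53.4% ± 3.5 in Gln-depleted libraries (SD, n = 3), without overlap. ALDOA was not called (log2 fold change -0.34 ± 0.37, adjusted p = 0.552, and -0.41 ± 0.30, adjusted p = 0.292, with the replicate block).

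Of the transporters of glucose, SLC2A3 had 4154, 2952 and 2434 counts in CTRL and 4945, 6445 and 3653 in Gln-depleted libraries. The groups overlapped, while in each pair the Gln-depleted library was higher, and the log2 fold change was 0.66 ± 0.28 (adjusted p = 0.134), or 0.65 ± 0.17 (adjusted p = 0.0157) with the replicate block. SLC2A1 was not called (log2 fold change -0.24 ± 0.21, adjusted p = 0.454, and -0.25 ± 0.12, adjusted p = 0.11, with the replicate block). Among the PFKFB genes, PFKFB4 fell from 9088, 6976 and 5953 counts to 4397, 4169 and 2458 (log2 fold change -1.0 ± 0.27, adjusted p = 0.0401, and -1.02 ± 0.13, adjusted p = 0.000922, with the replicate block). PFKFB3 passed with the block only (log2 fold change -0.76 ± 0.25, adjusted p = 0.0677, and -0.78 ± 0.18, adjusted p = 0.0103, with the replicate block), as did PFKFB2 in the other direction (log2 fold change 0.34 ± 0.19, adjusted p = 0.242, and 0.35 ± 0.12, adjusted p = 0.0449, with the replicate block) and TIGAR, which had pair log2 ratios of 0.95, 0.60 and 0.43 (log2 fold change 0.63 ± 0.26, adjusted p = 0.122, and 0.66 ± 0.13, adjusted p = 0.00572, with the replicate block).

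SLC16A3 rose from 77.5, 56.9 and 56.8 counts in CTRL to 140.3, 186 and 169 in Gln-depleted libraries, 2.59-fold and without overlap (log2 fold change 1.37 ± 0.29, adjusted p = 0.0178, and 1.38 ± 0.27, adjusted p = 0.00455, with the replicate block). LDHB was not called (log2 fold change -0.09 ± 0.16, adjusted p = 0.731, and -0.09 ± 0.10, adjusted p = 0.5, with the replicate block). The LDHA row held 48, 40.8 and 24.3 counts in CTRL and 21.3, 13.6 and 4.8 in Gln-depleted libraries and passed with the block only (log2 fold change -1.48 ± 0.54, adjusted p = 0.0918, and -1.59 ± 0.38, adjusted p = 0.0114, with the replicate block), with the same limit as above. In the pentose phosphate pathway, TALDO1, RPE and PGLS were higher and PGD lower with the block only. TALDO1 had pair log2 ratios of 0.41, 0.41 and 0.52 (log2 fold change 0.44 ± 0.23, adjusted p = 0.215, and 0.45 ± 0.11, adjusted p = 0.0116, with the replicate block), RPE of 0.47, 0.31 and 0.41 (log2 fold change 0.38 ± 0.33, adjusted p = 0.442, and 0.39 ± 0.11, adjusted p = 0.0209, with the replicate block) and PGLS of 0.19, 0.57 and 0.58 (log2 fold change 0.45 ± 0.20, adjusted p = 0.143, and 0.45 ± 0.13, adjusted p = 0.0224, with the replicate block). PGD had 7354, 4676 and 4899 counts in CTRL and 6324, 2432 and 2977 in Gln-depleted libraries (log2 fold change -0.53 ± 0.37, adjusted p = 0.342, and -0.63 ± 0.15, adjusted p = 0.0123, with the replicate block). TKT and RPIA were not called, with log2 fold changes of -0.23 and -0.03, which changed sign without CTRL replicate 1 for TKT (0.03) and without CTRL replicate 3 (0.08) or Gln-depleted replicate 2 (0.02) for RPIA.

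Whether a member changed differently between MAPKi and Gln depletion was tested by 1 contrast in a fit of the 12 libraries, namely the log2 fold change with MAPKi minus that with Gln depletion. It passed for 11 of 30 members (36.7%), beside 40.6% of 12623 genes, and for 20 with the replicate block, beside 61.1% of all genes in that fit. The 2 experiments were sequenced in different batches and share no libraries, so each change was a difference between the groups of its own experiment. The scaling and the estimate of the spread were shared by the 12 libraries. A difference can therefore depart from the values of the separate fits, such as -0.71 for GAPDH beside -0.34 and 0.42. In the separate fits the standard errors were larger with Gln depletion than with MAPKi (GAPDH, 0.19 against 0.035), and a shared spread does not keep this gap. ALDOC had the largest difference among the members (2.45 ± 0.46, adjusted p = 0.00132), since it rose with MAPKi and fell with Gln depletion. TPI1 (1.32 ± 0.22, adjusted p = 0.00059), PFKM (1.51 ± 0.28, adjusted p = 0.00138), GPI (1.11 ± 0.27, adjusted p = 0.00679) and HK1 (0.94 ± 0.31, adjusted p = 0.0289) were also higher with MAPKi relative to Gln depletion. PFKFB2 differed by 1.5 ± 0.18, adjusted p = 6.56e-05, a larger rise with MAPKi, and PGAM1 by 0.77 ± 0.19, adjusted p = 0.00757, a smaller fall.

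Differences below 0 were found for SLC2A3 (-1.43 ± 0.31, adjusted p = 0.00344), RPIA (-0.91 ± 0.17, adjusted p = 0.00107), HK2 (-0.78 ± 0.28, adjusted p = 0.0394) and GAPDH (-0.71 ± 0.20, adjusted p = 0.0146). The calls of HK1 and HK2 were the weakest: that of HK1 was lost in 8 of the 12 fits without 1 library (adjusted p from 0.0511 to 0.0683 in these) and that of HK2 in 10 (0.0585 to 0.0895). The ratio of HK2 to HK1 reads, which needs no scaling between libraries, moved on the log2 scale by -0.72 with MAPKi and by 0.95 with Gln depletion. It was -0.50, -0.43 and -0.67 in DMSO, -1.33, -1.24 and -1.19 in MAPKi, -0.36, -0.10 and 0.14 in CTRL and 0.86, 1.03 and 0.63 in Gln-depleted libraries, with no overlap in either experiment. The ratio of SLC2A1 to SLC2A3 moved by 1.05 and by -0.91, also without overlap, whereas that of PFKFB4 to PFKFB2 moved by -3.57 and -1.37, down in both.

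**Figure D5:**
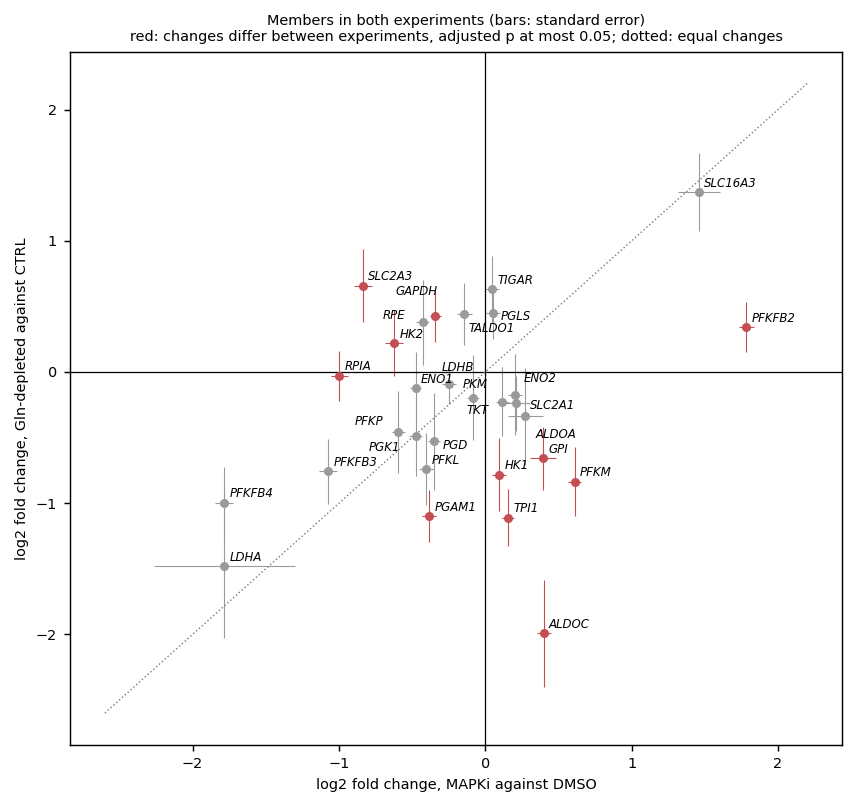
Log2 fold change with MAPKi (horizontal) against log2 fold change with Gln depletion (vertical) of the 30 tested members, with standard errors as bars, the dotted line marking equal changes and red points the 11 members whose changes differ. SLC16A3 lies high and PFKFB4 low on both axes, and ALDOC lies at 0.40 and -1.99.

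With the replicate block for Gln depletion, 8 members were called lower in both experiments (PFKL, PFKP, PFKFB3, PFKFB4, PGK1, PGAM1, LDHA and PGD) and 2 higher in both (PFKFB2 and SLC16A3), 26.7% and 6.67% of the members beside 13.6% and 11.4% of 12286 genes. In 4 members a rise with MAPKi stood beside a fall with Gln depletion (GPI, PFKM, ALDOC and TPI1), and in 4 a fall beside a rise (SLC2A3, GAPDH, TALDO1 and RPE), 13.3% of the members each, beside 6.95% and 8.05% of all genes. Of these members, TALDO1 and RPE did not pass the contrast between the experiments without the block (adjusted p = 0.113 and 0.109), and the others did. Without the block, PFKFB4 and PGAM1 were lower in both, SLC16A3 higher in both, and ALDOC and TPI1 higher with MAPKi and lower with Gln depletion, beside 5.2%, 4.45% and 2.4% of all genes, and no member was lower with MAPKi and higher with Gln depletion, beside 2.77%. Of 15 members with ACGTG in a start site window, 6 were higher and 7 lower with MAPKi, and of the 13 without it 1 was higher and 8 lower. With Gln depletion and the block these counts were 3 higher and 9 lower with the letters, and 3 higher and 4 lower without them. Of all genes, 38.4% were higher and 39.8% lower with MAPKi, and 25.1% and 23.8% with Gln depletion and the block. Genes other than the members were not split by these letters, so no link between the letters and a direction can be read from the counts. The uncertain rows of LDHA and ALDOA are among the 15.

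Of 45 other genes of these pathways, 28 were tested with MAPKi, of which 13 were higher and 7 lower, beside 38.4% and 39.8% of all genes. Among those whose normalized count averaged at least 100, the largest rises were in ENO3, the muscle enolase (1.64, adjusted p = 6.99e-08), and H6PD, which runs the oxidative pentose phosphate steps in the endoplasmic reticulum (1.12, adjusted p = 2.86e-06). SLC16A7, SLC2A13, PGM2L1, PGM1, BSG and DERA rose by 0.34 to 0.69 on the log2 scale. PRPS1 and PRPS2, which turn ribose phosphate into the precursor of nucleotides, fell by 1.67 and 1.61 (adjusted p = 1.43e-08 and 1.53e-09), and PGM2, PGP, SLC2A12 and GLYCTK fell by 0.33 to 0.54. With Gln depletion 26 were tested, of which 2 were higher and 6 lower, beside 9.45% and 8.43% of all genes. With the block 2 were higher and 10 lower, beside 25.1% and 23.8% of all genes. Those with at least 100 counts were all lower: PRPS2 at -0.93 (adjusted p = 0.0101), PGP, a phosphatase that clears side products of glycolysis, at -1.11 (adjusted p = 0.0267), PGM1, which links glycogen to glycolysis, at -0.92 (adjusted p = 0.0298), and SHPK, the sedoheptulose kinase, at -1.31 (adjusted p = 0.0388). With the block, PRPS1, ADPGK and G6PC3 were lower as well, at -0.67, -0.34 and -0.49.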

How the data were processed

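RNA-seq data of A375 cells were analysed from raw counts of reads on exons, which the authors deposited as 1 table after trimming with fastp 0.20.1, alignment to GRCh38.p13 with HISAT2 2.2.1 and counting with HTSeq 0.13.5 (ribosomal RNA depletion; cytoplasmic RNA per the labels, but total RNA where the study describes its sequencing). Every column of values was used, and groups came from the labels. Each experiment was fitted with edgeR 4.0.16 in R 4.3.3 (TMM, quasi-likelihood F test, no covariate), using protein-coding genes whose normalized count averaged at least 10. Normalized counts are scaled within an experiment, and their levels are not compared between the experiments. Calls, against no change and past 1.5-fold (glmTreat), needed a p of at most 0.05 after Benjamini-Hochberg adjustment across the genes tested. The standard error is the log2 fold change divided by the root of F. The paper used DESeq2, run here as an alternative (1.42.0). Python 3.11.15 with pandas 2.3.3, numpy 2.4.6 and matplotlib 3.10.9 served for tables and plots.

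All 31 members were named, and of 45 other pathway genes those called whose normalized count averaged at least 100. 1 gene of that list is not reported here. The members and lists were chosen with earlier results of these data known. Alternatives were DESeq2's size factors, total counts, DESeq2, 2 other count limits, all genes, all 12 libraries, the replicate block, the experimental batch as a term or batch 2 alone, each library left out, and an adjusted p of at most 0.01. Leaving out ALDOA, LDHA and SLC16A1 was added after the data were seen, as was a term for treatment by batch, of which nothing is reported because batch 1 holds 1 library per group. Deviations from the group mean correlated between libraries with the same replicate number by 0.584, 0.442 and 0.386 in the Gln depletion experiment, where the labels give experimental batches, so values with the replicate block stand beside its results. For members with many reads, the spread between libraries limits precision more than counting does. In rows with few reads, such as LDHA with 2 to 49 reads per library, counting error is large too.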

Additional observations from a re-analysis of the deposited data

How the results depend on the processing

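No alternative scaling turned the direction of a member. With all 12 libraries in 1 fit, MAPKi calls fell to 3 higher, 7 lower and 3 lower past 1.5-fold, and the Gln depletion calls were 4 higher, 10 lower, 1 higher past 1.5-fold and 3 lower past it. For Gln depletion, the replicate block gave 8 higher and 13 lower (past 1.5-fold 1 and 4), the experimental batch as a term 7 and 13 (1 and 3), batch 2 alone 6 and 11 (1 and 3), total counts 8 lower (3 past 1.5-fold), DESeq2 7 lower, an adjusted p of at most 0.01 0 higher and 1 lower (0 past 1.5-fold), and a fit of all genes 0 lower past 1.5-fold. In the MAPKi experiment, the replicate numbers correlated by only 0.0564 to 0.0687, each library best with its own number. The library names also share a number between the treated and the control library of a replicate, but the labels do not say what it stands for. The block there gave 10 higher and 17 lower, adding SLC2A1, HK1 and PKM. The contrast between the experiments gave 20 members with the replicate block.

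Without 1 library each, MAPKi gave 7 to 9 higher, 15 to 17 lower, 2 to 2 higher past 1.5-fold and 4 to 5 lower past it, Gln depletion 0 to 2 higher, 0 to 8 lower, 0 to 0 higher past 1.5-fold and 0 to 1 lower past it, and the contrast 9 to 13. The other pathway genes gave 11 to 13 higher and 5 to 7 lower with MAPKi, and 1 to 2 higher and 2 to 6 lower with Gln depletion. In those genes, a mean count of at least 100 gave 8 higher with MAPKi and 0 higher with Gln depletion, total counts, at least 2 reads, batch 2 alone and an adjusted p of at most 0.01 each gave 1 higher with Gln depletion, all 12 libraries gave 3 lower with MAPKi and 12 lower with Gln depletion, an adjusted p of at most 0.01 gave 4 and 1 lower, and the replicate block 10 lower with Gln depletion. Signs turned in uncalled Gln depletion values: over the libraries left out in turn, the log2 fold change ranged from -0.38 to 0.16 for ENO1, -0.48 to 0.12 for ENO2, -0.57 to 0.11 for PKM and -0.44 to 0.03 for TKT, each above 0 without CTRL replicate 1, and from -0.12 to 0.08 for RPIA, above 0 without CTRL replicate 3 (0.08) or Gln-depleted replicate 2 (0.02). The cause of these changes was not tested. Of the single-member values, 384 of 419 with MAPKi, 394 of 478 with Gln depletion and 190 of 209 in the contrast kept their direction and their side of the threshold.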
